A study of Danio rerio with 12 samples.

Results

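The endoderm specification genes examined here are *foxa2*, *foxa3*, *sox17*, *sox32*, *gata5*, *gata6* and *mixl1*, which encode transcription factors. They were taken as all probe sets whose symbol in the array annotation is one of these names. Each of the 7 genes had 1 probe set, which makes 7 of 15617 probe sets, and 7 of the 8793 genes that a probe set with a single symbol names. The arrays were Affymetrix Zebrafish Genome Arrays, each hybridized with RNA from a pool of 20 embryos of the ABTL strain at 4.5 hours post-fertilization (hpf), shortly before gastrulation. In each of 6 experiments, embryos were divided at 2 hpf. One pool stayed in embryo medium (control) and the other was kept in medium with 100 mM ethanol until 4.5 hpf, so that 6 control and 6 ethanol-exposed pools were measured. Control and ethanol pools with the same number in the sample titles were taken as the pair of an experiment. Whole embryos of both treatments were lysed, with no selection of cells.

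In zebrafish, endoderm arises at the blastula margin from cells that receive Nodal signals. Nodal activates *mixl1* (also known as *bon*) and *gata5* (also known as *fau*), and these factors switch on *sox32* (also known as *cas*), which is needed for any endoderm to form. Sox32 then acts with Pou5f3 to turn on *sox17*, and the forkhead genes *foxa2* and *foxa3* mark endoderm cells at later stages. Some of these genes are also active in other cells at this age. *sox32* and *gata5* are also expressed in the yolk syncytial layer, the nuclei at the surface of the yolk, and *foxa2* is also expressed in axial mesoderm. In the current annotation *sox17* and *sox32* are near neighbours, with 1 annotated gene between them.

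The values are MAS5 signals, a background-corrected brightness per probe set in arbitrary units. The levels of different probe sets are not compared here, since the signal also depends on the probes. Median signals over the array were 91.6 to 101.8 in control and 98.6 to 106.6 in ethanol-exposed embryos. Of 15502 probe sets other than array controls, 9767 reached a mean signal of 50 in a treatment and were tested. All 6 blastula markers examined were tested, and *pou5f3* and *nanog*, which mark pluripotent blastula cells, had control means of 20020 and 13410. Of 5 genes of later stages on the array, 1 (the neuronal gene *elavl3*, control mean 44.4) reached the minimum through its ethanol mean, while the heart gene *myl7* had a control mean of 7.21.

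Ethanol exposure was followed by a lower *foxa2* transcript level at 4.5 hpf, and the other 5 endoderm genes that could be tested had smaller differences that did not pass the test. Closest to the threshold among the other 5 was *gata6*, with a log2 change of -0.34 (adjusted p = 0.151 from limma), against -0.39 (adjusted p = 0.126) for *foxa2*. The changes of *foxa2* and *gata6* were not compared in a test. The *foxa2* call was lost in 11 of 15 alternative analyses, among them 1 with experiment as a random block, while *gata6* gained a call in 4. In all 6 genes that could be tested the fitted change was below 0, with a median log2 change of -0.18. Over all tested probe sets the median was 0.05, and 40.3% had a fitted change below 0. A probe set was called where its p after Benjamini-Hochberg adjustment was under 0.15, its raw p under 0.03 and its fold change 1.25 or more. These numbers are those of the study's methods. The study, however, applied 0.15 to Storey q-values from an analysis of variance, so the rule here is not its own. Among the transcription factors that the study reported as changed by ethanol, *foxa2*, *gata6* and also *hnf4a*, examined below, were listed as lower. By the rule used here 1 endoderm gene was called lower, 0 were called higher and 5 were not called. In the unmoderated model of the methods with Storey q, *foxa2* (q = 0.103) and *gata6* (q = 0.110) were both called. Over the array, 1.62% of tested probe sets were called lower, 3.78% higher and 5.40% in either direction. These members were lower in all 6 experiments in 2 cases (*foxa2* and *gata6*), as were 3.84% of all tested probe sets.

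**Figure D1:**
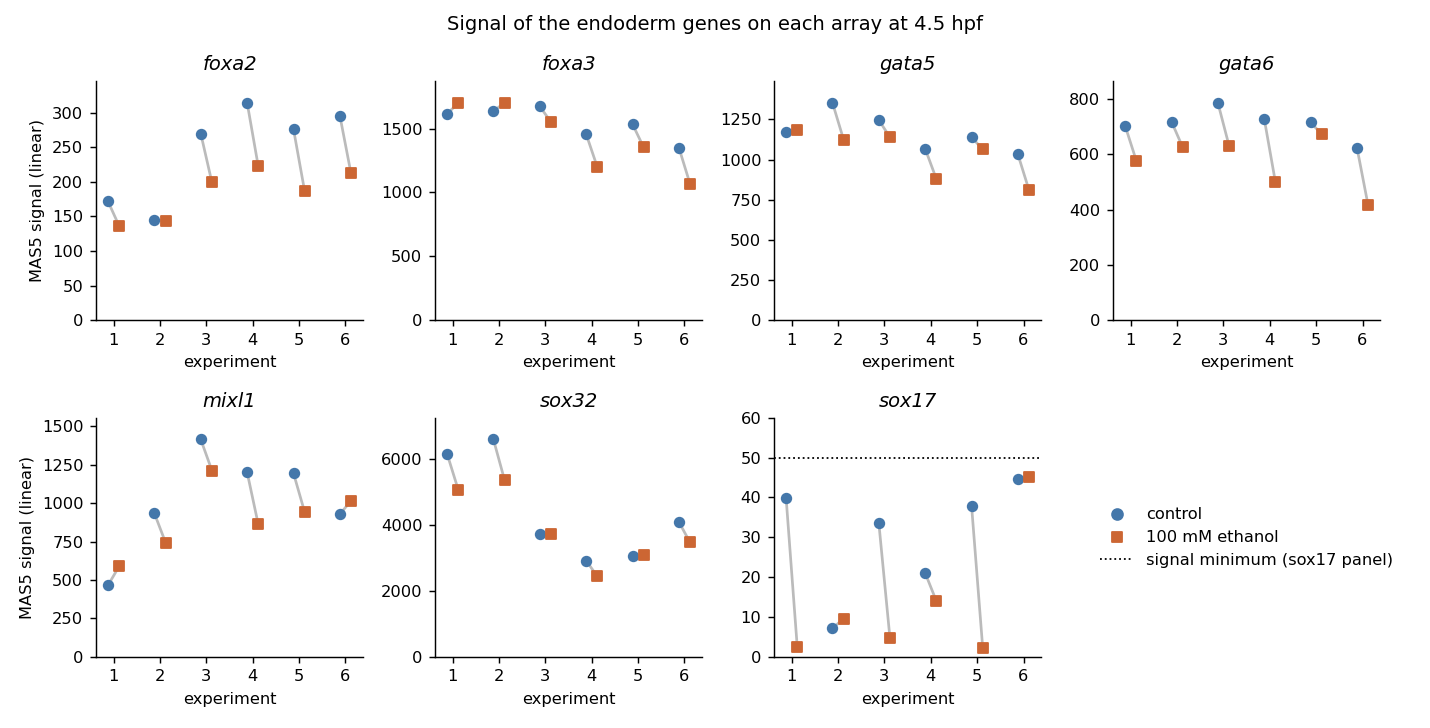
MAS5 signal (linear, arbitrary units, axis from 0) of each endoderm gene in each of the 6 experiments. Circles are control pools, squares are pools in 100 mM ethanol, and a line joins the pair of 1 experiment. *foxa2* and *gata6* were lower with ethanol in 6 of 6 experiments, and all *sox17* values lay below the dotted signal minimum of 50.

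The forkhead factor gene *foxa2* was the endoderm gene with the largest fitted change among those tested. Its signal in control embryos ran from 144.7 to 314.6 with a median of 273.1, and in ethanol-exposed embryos from 136.1 to 222.5 with a median of 193.0. The groups overlapped because the control pools of experiments 1 and 2 had signals of 171.7 and 144.7, lower than the other control pools. In experiments 3 to 6 every control signal (269.9 to 314.6) was above every ethanol signal (186.7 to 222.5). Control pools had a mean signal of 245.5 ± 69.9 (SD, n = 6), and ethanol pools one of 183.4 ± 35.9 (SD, n = 6). *foxa2* fell by 0.39 on the log2 scale (SE 0.098, 95% interval -0.61 to -0.16, adjusted p = 0.126 from limma), which is 0.764 of the control level. The signal changed by -20.7% in experiment 1 and by -26.2% to -32.4% in experiments 3 to 6, whereas in experiment 2 the signals of 144.7 and 143.7 were almost equal. By unadjusted p, *foxa2* was at place 329 of the 9767 probe sets. With experiment as a random block, at 1 correlation for all probe sets, *foxa2* was not called (adjusted p = 0.171 from limma). The call was also lost without experiment 1, 3, 4, 5 or 6 (adjusted p from limma 0.203, 0.239, 0.245, 0.248 and 0.214) and was kept without experiment 2 (adjusted p = 0.147). In these fits the log2 change stayed between -0.46 and -0.35, and the number of probe sets called over the array dropped from 527 to between 23 and 145.

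The zinc finger gene *gata6*, which has roles in endoderm and heart development, had a change close to that of *foxa2*. Its control signals were 624.4 to 786.7 (median 716.8) and its ethanol signals 415.8 to 673.1 (median 601.8). Of the 6 ethanol pools, 3 lay below every control pool, and no control pool lay below all ethanol pools. Control pools averaged 712.8 ± 52.3 (SD, n = 6), and ethanol pools 570.8 ± 96.2 (SD, n = 6). The log2 change was -0.34 (SE 0.097, 95% interval -0.56 to -0.11, adjusted p = 0.151 from limma), just outside the threshold, with a lower signal in 6 of 6 experiments. The largest differences were in experiment 6, from 624.4 to 415.8, and in experiment 4, from 728.7 to 500.4. In experiment 5, with 715.4 and 673.1, the pair differed least.

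*gata5* and *sox32*, which act upstream in endoderm formation, were each lower in 5 of 6 experiments and did not pass the test. The *gata5* signal was 1032 to 1354 (median 1156) in control and 808.8 to 1184 (median 1093) in ethanol-exposed embryos. Its log2 change was -0.19 (SE 0.086, 95% interval -0.38 to 0.01, adjusted p = 0.299 from limma). The pair of experiment 1, 1173 and 1184, was the exception, and the 2 ethanol pools below all controls were those of experiments 4 and 6, as for *foxa3*. *sox32* signals were 2921 to 6602 (median 3915) in control and 2442 to 5367 (median 3596) in ethanol-exposed embryos, with wide overlap. The *sox32* log2 change was -0.18 (SE 0.087, 95% interval -0.38 to 0.02, adjusted p = 0.318 from limma). It was split between experiments. In experiments 1, 2, 4 and 6 the ratio was -0.24 to -0.30 on the log2 scale, and in experiments 3 and 5 it was -0.01 and 0.00.

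The other forkhead gene among these endoderm genes, *foxa3*, had no uniform direction. Its signals were 1351 to 1674 in control (median 1576) and 1067 to 1703 in ethanol-exposed embryos (median 1453). In experiments 1 and 2 the ethanol pool was the higher of the pair, by 4.99% and 3.98%, and in the other 4 it was lower, by up to 21.1% in experiment 6. The fitted log2 change was -0.13 (SE 0.092, 95% interval -0.34 to 0.08, adjusted p = 0.473 from limma). *mixl1*, a homeobox gene and direct Nodal target, varied most in its ratio among the genes tested (SD 0.31 on the log2 scale, where the median over tested probe sets was 0.31). Its control signals were 466.1 to 1414 (median 1064) and its ethanol signals 588.8 to 1212 (median 901.6). With ethanol it was higher in experiments 1 and 6 (466.1 to 588.8 and 928.9 to 1014) and lower in the other 4. The log2 change was -0.15 (SE 0.13, 95% interval -0.44 to 0.14, adjusted p = 0.543 from limma).

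*sox17*, the gene that Sox32 activates, lay under the signal minimum at this stage on its probe set. Whether its transcript was present was not tested. Its signals were 7.14 to 44.5 (median 35.7) in control and 2.29 to 45.2 (median 7.10) in ethanol-exposed embryos, all below 50, so it was not tested. The ethanol pools of experiments 1, 3 and 5 were at 2.48, 4.62 and 2.29, against 39.8, 33.5 and 37.9 in their controls. Experiments 2, 4 and 6 did not share this difference (7.14 and 9.58, 21.0 and 14.0, 44.5 and 45.2). Ratios of such low signals have no reliable size, so that no fold or test of *sox17* is read as a result.

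**Figure D2:**
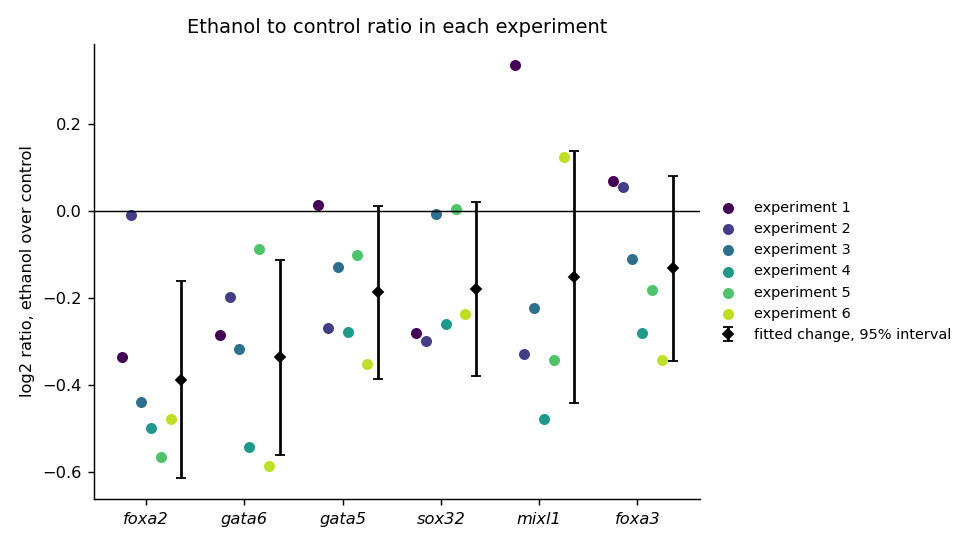
Log2 ratio of ethanol to control signal in each experiment (coloured points) for the 6 endoderm genes tested, ordered by their fitted change. Diamonds with bars are the change fitted in limma with its 95% interval. The intervals of *foxa2* (-0.61 to -0.16) and *gata6* (-0.56 to -0.11) lie below 0, and those of the other 4 genes include 0.

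Without reference to the other probe sets, the signs of the 6 log2 ratios of each of the 6 tested genes were flipped in all combinations (an exact permutation test, two-sided). The exact p was 0.03125, the smallest that 6 pairs allow, for *foxa2* and *gata6*. It was 0.0625 for *sox32* and *gata5*, 0.156 for *foxa3* and 0.281 for *mixl1*. These p-values are not adjusted over the genes. The flips were run on 7 genes, *sox17* included, whose value is not read as a result. RNA of whole embryos was measured, so that fewer cells of a type and less RNA per cell cannot be told apart.

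The related genes were also compared within each experiment, as an effect called in one gene and not in its relative does not show a difference. The *foxa2* log2 ratio was below that of *foxa3* in 6 of 6 experiments, by a mean of -0.26 (SD 0.14, n = 6, range -0.41 to -0.07). The exact sign-flip test gave p = 0.03125 and an adjusted p = 0.0938 over the 3 comparisons. The *gata5* ratio exceeded that of *gata6* by a mean of 0.15 (SD 0.15, n = 6, exact p = 0.125, adjusted p = 0.188) and was the lower of the pair in 2 of 6 experiments. Neither difference passed a threshold of 0.05 after adjustment. Given the p-values of the other comparisons, that of *foxa2* and *foxa3* could not have passed it. Its exact p of 0.03125 is the smallest that 6 pairs allow, and the adjustment over 3 comparisons raised it to 0.0938. Whether these 2 genes differ is therefore not decided by this threshold. The third comparison, *sox17* against *sox32*, was counted in the adjustment and is not read as a result because of the low *sox17* signals.

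Several of these genes also differed between the experiments. *sox32* had its highest signals in experiments 1 and 2, with 6168 and 6602 in control and 5077 and 5367 with ethanol, against 2921 to 4096 in the other control pools. *foxa2* went the other way, with its lowest control signals in those experiments. *mixl1* was lowest in experiment 1, at 466.1 in control, and highest in experiment 3, at 1414. The share of the variance of the log2 signal that lay between experiments was 93.6% for *sox32*, 86.4% for *mixl1*, 75.5% for *foxa3*, 72.0% for *foxa2*, 67.3% for *gata5* and 41.1% for *gata6*, with a median of 63.4% over tested probe sets. This share is spread over 6 experiments and that of treatment over 2 groups, so that the shares are not a ranking of both effects. Treatment took 46.0% for *gata6*, 22.9% for *foxa2*, 22.6% for *gata5*, 10.2% for *foxa3*, 4.26% for *sox32* and 2.95% for *mixl1*, with a median of 6.38%. In limma the experiment term passed an adjusted p under 0.15 for *sox32* (adjusted p = 0.00876), *foxa2* (0.0272) and *mixl1* (0.0340), and not for *foxa3* (0.188), *gata5* (0.208) or *gata6* (0.284). Over the array, 37.1% of tested probe sets passed.

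The ethanol ratios of the genes were not shown to move together from experiment to experiment. Among the 6 tested, 3 were lower in experiment 1, 6 in experiments 3 and 4, and 5 in experiments 2, 5 and 6. The median log2 ratio of these 6 genes was -0.38 in experiment 4 and -0.35 in experiment 6. It was -0.13, -0.23, -0.18 and -0.14 in experiments 1, 2, 3 and 5, while the median over all tested probe sets was 0.03 to 0.09. For the 21 pairs among the 7 genes, the smallest adjusted p over pairs was 0.554 for Pearson's r and 0.572 for Spearman's rho (exact permutation tests, n = 6). The value for r was that of *sox17* and *gata5*, where *sox17* lay under the signal minimum. Among the tested genes the smallest exact p for r was that of *foxa2* and *foxa3* (r = 0.73, exact p = 0.0653, rho = 0.71, exact p = 0.136, adjusted p = 0.685 for r). Without the 2 experiments farthest from the median *foxa2* ratio, r was 0.11.

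In log2 signal across the 12 arrays, *foxa3* and *gata5* were close in pattern. For each gene the named genes with the highest Pearson correlation of log2 signal over the arrays were listed, as a description in which arrays of 1 experiment and of 1 treatment share their source. *foxa3* was closest to *cpn1* (r = 0.94), *gata5* (0.93) and *pfn2a*, a profilin gene (0.92). *gata5* was closest to *pnhd* (r = 0.93), which encodes a secreted protein, then to *foxa3* (0.93) and to *ved*, a homeobox gene of ventral cells (0.91). For *gata6* these were *ppp1r3cb* (r = 0.91), *gpr137* (0.88) and the annexin gene *anxa1a* (0.88). For *foxa2* they were *ilf2* (r = 0.92), *acaa2* (0.91) and *ap3b1a* (0.91), for *sox32* *katnal1* (0.96), *gmfb* (0.96) and *psmb6* (0.94), and for *mixl1* *sltm* (0.94), *cited4b* (0.94) and *nudt9* (0.94). Of these genes, *cpn1* (log2 change -0.34, adjusted p = 0.142 from limma) and *anxa1a* (-0.58, adjusted p = 0.0885) were called lower with ethanol. Over the array 1.62% of tested probe sets were called lower. The correlation includes the difference between treatments, so these calls are not separate from the choice of the genes.

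By the rule used here, no listed gene that acts upstream of the endoderm genes or beside them was called. Of 46 genes of the Nodal and endoderm pathway, 32 were on the array under a matched name and 26 were tested. Of the 26, 0 were called higher and 0 lower in limma. Over the array 5.40% of tested probe sets were called in either direction, a share that leaves few calls among 26 genes. In the list 10 genes had a fitted change below 0, and the median log2 change was 0.04. Among the Nodal ligands, *ndr1* (log2 change 0.03, SE 0.11), *ndr2* (0.14, SE 0.11) and *gdf3* (0.23, SE 0.11), which encodes the Vg1 partner of Nodal, had fitted changes above 0. The Nodal antagonist genes *lft1* and *lft2*, themselves targets of Nodal, had changes of 0.08 (SE 0.11) and 0.13 (SE 0.11), each lower in 1 of 6 experiments.

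The receptor and signal transduction genes lay near 0 for the most part. The co-receptor gene *tdgf1* (also known as *oep*) had a log2 change of 0.04 (SE 0.098), the receptor genes *acvr1ba* and *acvr2ba* changes of -0.02 (SE 0.12) and 0.06 (SE 0.083), and *foxh1*, a cofactor of Smad2, one of -0.00 (SE 0.090). *smad2*, which carries the Nodal signal to the nucleus, had a log2 change of 0.32 (SE 0.11) and an adjusted p of 0.206 in limma. *eomesa* encodes a T-box factor that takes part in *sox32* activation, and its change was 0.34 (SE 0.12, adjusted p = 0.204 in limma). None of the 6 ethanol pools had less of it than its control. *pou5f3*, the partner of Sox32, had a change of -0.11 (SE 0.10, adjusted p = 0.572) and *sebox* (listed as *og9x*), a homeobox gene related to *mixl1*, one of -0.28 (SE 0.16, adjusted p = 0.396). Of the 6 tested later endoderm genes 2 were below 0, and their median log2 change was 0.07. *cxcr4a*, a chemokine receptor gene, had a change of 0.16 (SE 0.097), the chemokine genes *cxcl12a* and *cxcl12b* changes of 0.24 (SE 0.12) and 0.12 (SE 0.24), *hhex* one of -0.41 (SE 0.20) and *hnf4a* one of -0.38 (SE 0.12, limma adjusted p = 0.169). *foxa1*, *gata4*, *hnf1bb*, *s1pr2* and *pdx1* lay under the signal minimum. Calls of 3 of these genes changed with the processing. *eomesa* was called higher with experiment as a random block (adjusted p = 0.135 from limma) and at a signal minimum of 100 (adjusted p = 0.131), as was *smad2* at that minimum (adjusted p = 0.137). *hnf4a* was called lower with log2(signal + 50) (adjusted p = 0.101 from limma), at the minimum of 100 (adjusted p = 0.1001) and in the unmoderated model of the methods (q = 0.141). The plot of fitted changes along the pathway sets these genes beside the endoderm genes.

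**Figure D3:**
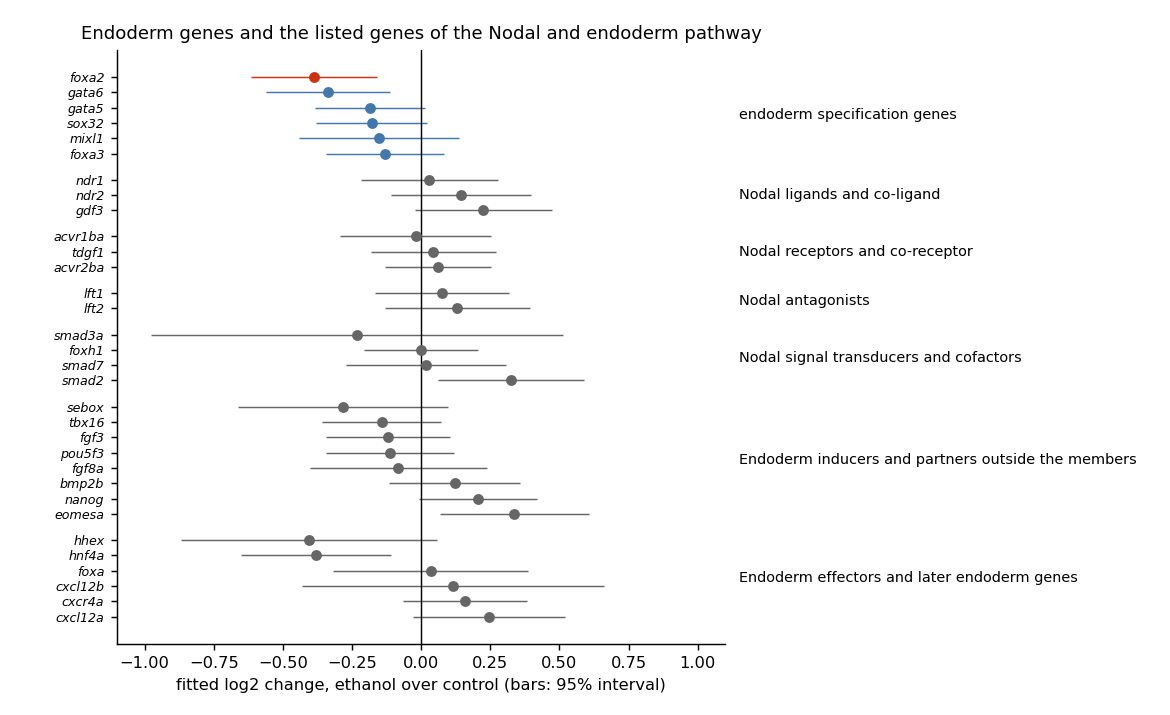
Fitted log2 change, ethanol over control, with its 95% interval for the 6 endoderm genes tested and the 26 tested genes of the 6 pathway lists, named at the right. The red point is *foxa2*, the 1 gene called here. None of the 26 listed genes was called, where 5.40% of all tested probe sets were, and the median of the 26 was 0.04.

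Markers of other cells that express some of these genes were read from the same arrays, over which 1.62% of tested probe sets were called lower and 3.78% higher. Of 5 tested markers of the yolk syncytial layer (among them *hnf4a*, also a later endoderm gene), 0 were called higher and 2 lower, with a median log2 change of -0.38. These 2 were the transferrin gene *tfa* (log2 change -1.05, adjusted p = 0.0494 from limma) and the apolipoprotein gene *apoa1a* (-1.03, adjusted p = 0.0885), while *mxtx2*, which specifies this layer, had a change of 0.18 (adjusted p = 0.373). The summed signal of the 5 ran from 1894 to 3784 in control and from 1866 to 2943 in ethanol-exposed embryos, and *mxtx2*, with a control mean of 1431, weighs more in it than *tfa* (217.6) and *apoa1a* (138.5). Of 6 tested axial mesoderm and organizer markers, in which *foxa2* is also expressed, 0 were called in limma and 4 were below 0, with a median of -0.17. They include *gsc* (log2 change -0.14, adjusted p = 0.422 from limma), *noto* (0.02) and *chrd* (-0.21, adjusted p = 0.273), the last of these lower in 6 of 6 experiments. Their summed signal was 7712 to 9626 in control and 7136 to 8452 with ethanol. Of 6 tested enveloping layer markers, the outer epithelium of the blastula, 1 was called lower (*anxa1c*, log2 change -0.78, adjusted p = 0.108 from limma) and the median was -0.14, with a summed signal of 33550 to 45620 in control and 32830 to 42090 with ethanol. Dorsal forerunner cells, which express *sox32* and *sox17*, were represented by 2 tested genes of the margin. These were *tbxta* (log2 change -0.28, adjusted p = 0.270 from limma) and *tbx16* (-0.14, adjusted p = 0.441), neither called, with a median of -0.21. The summed signal of the 2 was 10170 to 12150 in control and 9411 to 12180 with ethanol. *tbxta* is also 1 of the 6 axial mesoderm and organizer markers above, so the 2 lists are not separate. The part of these cells in the *foxa2* and *gata6* values was not tested.

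The size of the *foxa2* and *gata6* changes varied little under the alternatives that could alter it, and their calls varied more. Other blocks, signal minimums and thresholds and the unmoderated model leave the fitted change as it is. Over 15 alternatives the log2 change of *foxa2* was -0.46 to -0.32 and its adjusted p 0.0684 to 0.642. For *gata6* the change was -0.41 to -0.29 and the adjusted p 0.0910 to 0.545. *gata6* was called lower with experiment as a random block (adjusted p = 0.0986 from limma), after quantile normalization (adjusted p = 0.126), at a signal minimum of 100 (adjusted p = 0.0910) and in the unmoderated model of the methods with Storey q (q = 0.110). *foxa2* and *gata6* were both called in the last 3 of these settings. Without the experiment term neither was called (adjusted p = 0.642 and 0.545 from limma), and 1 probe set was called over the array.

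**Figure D4:**
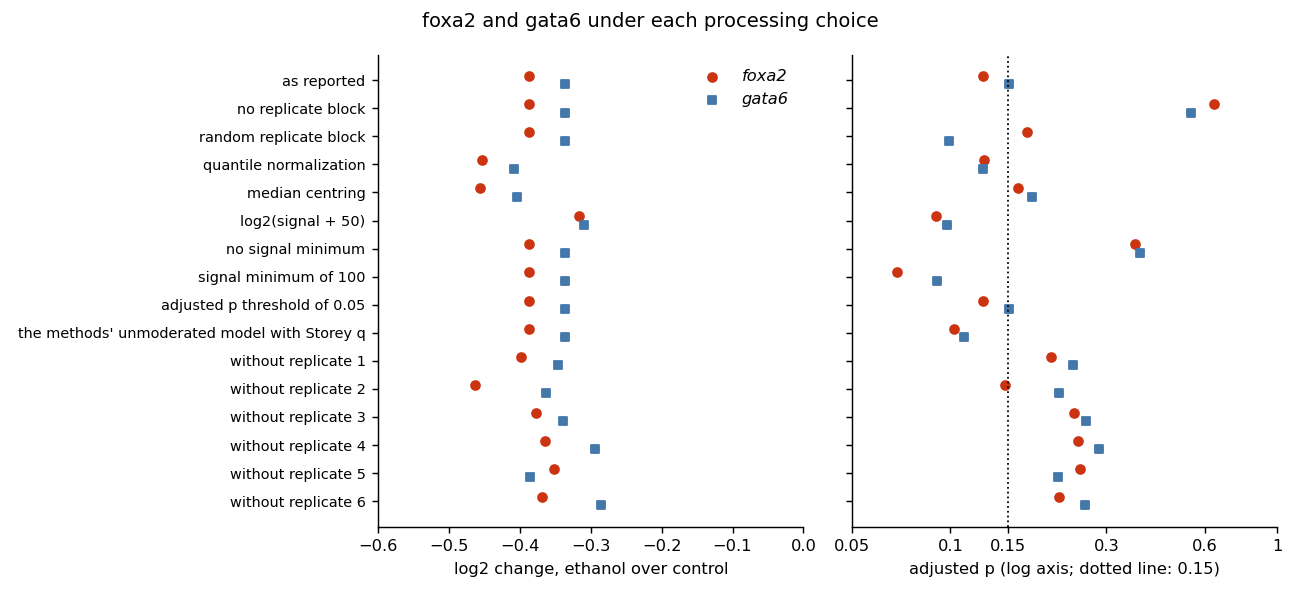
Log2 change of *foxa2* (circles) and *gata6* (squares) at left, and their adjusted p on a log axis at right, as reported and under each of 15 alternatives. Every log2 change lies between -0.46 and -0.29, while the adjusted p (dotted line at 0.15) ranges from 0.0684 to 0.642 for *foxa2* and from 0.0910 to 0.545 for *gata6*.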

How the data were processed

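The authors computed MAS5 signals in Affymetrix Expression Console (version not given in the sources used here) and deposited the intensity of each probe set on a linear scale. On each of the 12 arrays the mean after trimming 2% at each end was 500, which is not the target that the methods state. Ratios do not depend on this scale, but the signal minimum and the offset of the log are relative to it, and so is the set of probe sets tested. Detection calls were not used here, and a signal minimum of 50 stood in for them. Gene symbols came from the platform annotation of 2016 (10802 with 1 symbol, 135 with several, 4680 with none), updated by gene identifier. No endoderm gene was named from a probe set with several symbols. No sequence is printed.

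Log2 signals were fitted in limma 3.58.1 (lmFit, then eBayes; R 4.3.3), with a treatment factor and an experiment factor, over 9767 probe sets, 5735 being under the minimum, and p-values were adjusted over all of them. The pairs rest on the numbers in the sample titles and on the methods, which use experiment as a factor. The methods do not state that equal numbers mark the same experiment, and all values per experiment depend on this reading. After subtraction of the treatment mean, the control and ethanol arrays of 1 number correlated at 0.37 to 0.67. For experiments 2, 5 and 6 the control array was closest to the ethanol array of its own number, and for experiments 1, 3 and 4 it was not. The steps were tested on simulated data, in which the planted changes were larger than those of the tested endoderm genes. How often changes of the size found here would be called was not tested. Exact tests and figures used Python 3.11.15, numpy 2.4.6, pandas 2.3.3, scipy 1.17.1 and matplotlib 3.10.9.

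The genes and lists were chosen with earlier results of these data known. Named are all endoderm genes, and for each list the called genes and up to 4 others in list order. Also named are the 3 genes whose log2 signal correlated most with each endoderm gene, except for *sox17*, which lay under the minimum. *foxh1*, *hnf4a*, *myl7* and the listed genes under the minimum fall outside this rule and were chosen after their values were seen. The number of others named differed between lists. Tested genes left out include *smad3a* (log2 change -0.23, SE 0.32), *smad7* (0.02, SE 0.13), the forkhead gene *foxa* (0.03, SE 0.15) and *slc26a1* (-0.18, SE 0.12). Where a listed gene had several probe sets, the one with the highest mean signal among those tested was used. The test of differences between experiments and its alternatives were added after the data were seen. The alternatives were other blocks, normalizations, offsets, minimums and thresholds, the unmoderated model of the methods, and leaving out each experiment. The methods describe 7 independent experiments. The authors left out the experiment in which an ethanol sample had low RNA integrity, and the arrays of the other 6 were used here.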

Additional observations from a re-analysis of the deposited data

Results flagged for a closer look

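Of 21 sets of 6 values (control signals, ethanol signals and log2 ratios of the 7 endoderm genes), 1 held a sample far from the others by Dixon's criterion, which by chance marks about 1 set in 20. The *sox17* signal of the ethanol pool of experiment 6 was 45.2, where the next of the ethanol pools was 14.0 and the lowest 2.29. The gap was 0.727 of the range (critical value 0.625). This value, like all *sox17* values, lay under the signal minimum of 50.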

How the results depend on the processing

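All 6 tested endoderm genes kept a fitted change below 0 under each of the 15 alternatives, and *foxa3*, *sox32*, *gata5* and *mixl1* were called in none. Other blocks, signal minimums and thresholds and the unmoderated model could not move the fitted change. They alter only its error, its p or the set of probe sets tested. The sign could differ only with the normalization, with the offset or without an experiment. The *foxa2* call was lost without the replicate block for experiment (log2 change -0.39, adjusted p = 0.642), with a random replicate block (-0.39, adjusted p = 0.171) and after median centring (-0.46, adjusted p = 0.161). It was also lost with no signal minimum (-0.39, adjusted p = 0.366) and at an adjusted p threshold of 0.05 (-0.39). With log2(signal + 50) the *foxa2* call was lost because the change of -0.32 (adjusted p = 0.0904) fell short of the fold threshold. *gata6* gained a call with a random replicate block (-0.34), after quantile normalization (-0.41), at a signal minimum of 100 (-0.34) and in the methods' unmoderated model with Storey q (-0.34). The number of endoderm genes called was therefore 0 without the replicate block, after median centring, with log2(signal + 50), with no minimum and at the threshold of 0.05, and 2 after quantile normalization, at the minimum of 100 and in the unmoderated model. Pathway genes called, 0 as reported, were 1 with the random replicate block, 1 with log2(signal + 50), 1 in the unmoderated model and 3 at the minimum of 100 (*eomesa*, *hnf4a* and *smad2*). Over the array 527 probe sets were called as reported (369 higher, 158 lower), 1 without the replicate block, 249 after quantile normalization (103 higher), 179 after median centring (60 higher), 2 with no minimum, 824 at the minimum of 100 and 33 at the threshold of 0.05. The median log2 change over the array was 0.05, against 0.01 after quantile normalization and -0.02 after median centring. Leaving out 1 experiment gave -0.46 to -0.35 for *foxa2*, -0.39 to -0.29 for *gata6*, 0 to 1 endoderm genes called, 0 pathway genes called and 23 to 145 probe sets over the array. Genes that differ between experiments were 3 of 6 as reported, 6 after quantile normalization and 2 to 3 without 1 experiment. The difference of *foxa2* from *foxa3* was -0.29 to -0.23 without 1 experiment (adjusted p 0.125 to 0.188 in exact tests, where 5 pairs allow no exact p under 0.0625) and -0.19 with log2(signal + 50). That of *gata5* from *gata6* was 0.12 to 0.19 without 1 experiment and 0.13 with log2(signal + 50). That of *sox17* from *sox32* shrank from -1.66 to -0.19 with log2(signal + 50), and was -2.14 to -1.18 without 1 experiment. Because of the low *sox17* signals, its size is not read as a result. No gene has a second probe set. The cause of these changes was not tested. Precision is limited by the number of arrays and by low signals.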
